A study of Mus musculus with 2 samples.

Results

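The genes described here lie on mouse chromosome 13, between bases 41196796 and 51247714 of build mm9, a stretch of 10.05 Mb. Members are all non-control probes that the array files place inside this interval, with the 3 probes of 1 gene left out by the rule that defined it. This gave 128 member probes of 41174 probes on the array. The 10 Mb on each side, with 124 probes before the interval and 208 after it, served for comparison. The interval was chosen by the log2 differences between these same 2 arrays, so every difference below is a description and no test is given. Of the 128 member probes, 127 had a usable spot on both arrays, 94 of them in 59 named genes and 33 for transcripts that keep the file's own name. The remaining probe, in 4732499D12Rik, had an outlier spot.

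RNA came from NIH3T3, an established line of mouse embryonic fibroblasts, stably carrying either the empty plasmid pcDNA3.1 (1 array) or pcDNA3.1-MARVELD1 (1 array) after G418 selection, which both groups share. The labels do not say whether a line was 1 clone or a pool, and they name no promoter. The study asked how MARVELD1, a membrane protein with a MARVEL domain, influences the expression profile. Both arrays are single-colour (Cy3) Agilent whole-genome arrays with 60-base probes. Neither group has a replicate, which limits the precision of everything that follows, and no p-value between groups is given. Paired intensities below give the empty vector first and the array labelled MARVELD1 second.

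The interval holds no single pathway. It begins with Gcm2 and Elovl2, passes through Nedd9, Edn1, Jarid2, Dek and Id4, and reaches a cluster of small leucine-rich proteoglycan genes (Ecm2, Aspn, Omd and Ogn), whose products bind collagen fibrils. Its other genes encode chromatin regulators, a nuclear pore protein, nucleolar and kinetochore proteins, regulators of the cytoskeleton, and enzymes of nucleotide and acyl-group metabolism. Neighbouring genes on a chromosome need not share a function, and position is all that joins these.

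A signal was called well above background by the scanner program's own flag, which 68.7% of spots carried on the array of the empty vector and 69% on the array labelled MARVELD1. Differences are log2 intensities scaled to each array's 75th percentile, array labelled MARVELD1 minus empty vector array. From repeated spots, the SD of a single-spot difference was 0.29. Probes of the same gene varied more, with an SD of 0.54 over 5489 genes. The 2 probes of Marveld1 were lower, not higher, with the plasmid: 8725 against 6293 for A_52_P541175 (-0.33) and 184 against 126 for A_51_P158814 (-0.41). Whether they read the insert is not known, so every direction below rests on the label. Of 11 fibroblast markers, all 11 were well above background on both arrays, with a median difference of -0.53. Of these, 7 were below 0, beside 33.8% of all detected genes. Past 2-fold lower, beside 3.52% of all genes, were 3: Pdgfrb (-2.09), Col3a1 (-1.55) and Fn1 (-1.11). Of 6 epithelial markers, Epcam, Cdh1 and Cldn4 were well above background on neither array. Krt8 read 219 and 211, Krt5 328 and 608 (1.02), and Krt18 had a bound of 1.39. Detected endothelial, macrophage, lymphoid and muscle markers had median differences of 0.32, 0.36, 0.26 and 0.54, beside 0.20 for all genes. The part of these marker differences in the values of the interval was not tested. The leukocyte marker Ptprc read 41.1 and 52.2, near the lowest well-measured intensities of 33 and 33.8. In cultures measured in bulk, fewer cells of a type and less RNA per cell cannot be told apart.

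The probes below are shown because they carry the differences that the interval turns on. They are those of the genes at its extremes by brightest probe (Sirt5 and Elovl2) and of a gene whose probes gave the same difference (Id4). The others belong to genes whose probes differed widely (Fam120a, Dek and Nup153). Sequences are those of the array files, 5′ to 3′, and capitals mark runs of 4 or more identical bases. Coordinates are on mm9.
Elovl2, A_51_P292582, chr13:41278580-41278639, minus strand: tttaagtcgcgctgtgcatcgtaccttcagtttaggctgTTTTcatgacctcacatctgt
Sirt5, A_51_P411909, chr13:43490351-43490410, plus strand: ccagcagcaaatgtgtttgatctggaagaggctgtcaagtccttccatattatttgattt
Nup153, A_51_P115085, chr13:46775613-46775672, minus strand: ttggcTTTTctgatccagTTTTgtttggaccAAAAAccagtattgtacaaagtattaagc
Nup153, A_52_P1051802, chr13:46797548-46797607, minus strand: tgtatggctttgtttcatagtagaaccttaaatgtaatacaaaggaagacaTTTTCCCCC
Dek, A_51_P298355, chr13:47180478-47180537, minus strand: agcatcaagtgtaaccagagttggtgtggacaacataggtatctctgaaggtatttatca
Dek, A_52_P477709, chr13:47193574-47193633, minus strand: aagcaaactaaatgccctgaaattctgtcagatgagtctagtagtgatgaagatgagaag
Id4, A_52_P449871, chr13:48358668-48358727, plus strand: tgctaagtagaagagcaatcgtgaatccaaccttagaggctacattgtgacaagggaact
Id4, A_51_P494430, chr13:48359180-48359239, plus strand: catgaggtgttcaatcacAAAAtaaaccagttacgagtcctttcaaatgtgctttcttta
Fam120a, A_51_P387845, chr13:48975501-48975560, minus strand: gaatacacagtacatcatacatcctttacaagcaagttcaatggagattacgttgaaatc
Fam120a, A_52_P415365, chr13:48976013-48976072, minus strand: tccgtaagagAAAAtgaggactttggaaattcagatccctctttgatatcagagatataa
The 94 detected member probes were like the array in base composition, with a median GC content of 41.7% against 41.7% over all 29534 detected probes, and 48.9% held such a run against 60.6%.

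Named genes of the interval lay mostly on the lower side, by small amounts. Of the 59 named genes, 49 were detected, meaning that the flag was set for a probe on either array, and for 47 it was set on both. Each gene is given by its brightest probe. Over these 49 genes the median log2 difference was -0.27, with quartiles at -0.70 and 0.17 and extremes of -1.97 and 1.37. Of the 49, 31 were below 0 and 18 above, or 36.7% above, beside 66.1% above 0 among all 16544 detected genes. Past 2-fold, 5 genes were lower, beside 3.52% of all genes, and 2 higher, beside 5.68%. The median of all detected genes was 0.20, so the interval's median lay 0.47 lower on the log2 scale, or -0.47 relative to it. The 53 detected genes of the flank before the interval gave the same counts, 5 lower (9.43%) and 2 higher (3.77%), against 10.2% and 4.08% in the interval, and the 88 of the flank after it gave 4 lower and 3 higher. These counts describe the contrast that chose the interval.

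**Figure D1:**
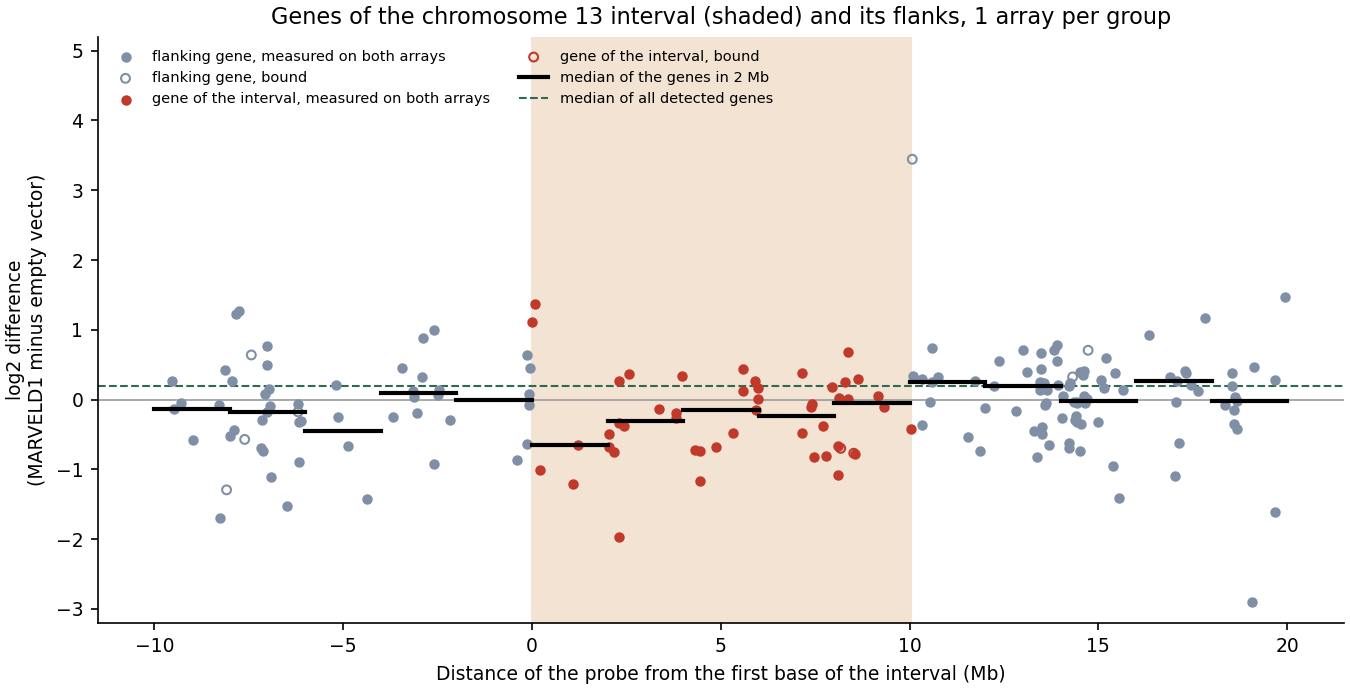
Log2 difference of each detected gene (y axis) against the distance of its probe from the first base of the interval (x axis, Mb), with the interval shaded, filled points for genes measured on both arrays, open points for bounds, black bars for the median of each 2 Mb and a dashed line for the median of all detected genes (0.20). Bars inside the interval run from -0.66 to -0.05, while single genes on both sides of 0 occur along its whole length.

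The flanks differed from each other. The 53 detected genes before the interval had a median of -0.09, with 22 above 0, and the 88 after it a median of 0.14, with 50 above 0. Both flanks together (141 genes) had a median of 0.03, 0.30 above that of the interval, or -0.30 for the interval relative to them. The rest of chromosome 13 (395 genes) had a median of 0.01, and all other chromosomes 0.21. Chromosome 13 outside the interval thus also lay below the other chromosomes. The spread within the interval, an SD of 0.61, was much as in the flanks (0.69) and over all genes (0.65), and is about as large as the SD of 0.54 between probes of a gene. Past 2-fold lower before the interval were Serpinb1a (-1.70), Pxdc1 (-1.53), Nrn1 (-1.42), Slc22a23 (-1.11) and, by a bound of -1.29, Serpinb9. After it these were Gas1 (-2.90), Dapk1 (-1.61), Tgfbi (-1.41) and Hnrnpa0 (-1.09). With the interval made 1 Mb longer at each end, its median was -0.11 and the difference from the flanks fell in size to -0.09.

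Along the interval the lower values were not evenly placed. In steps of 2 Mb from its first base, the medians were -0.66 (5 genes), -0.30 (12 genes), -0.16 (11 genes), -0.24 (8 genes) and -0.05 (12 genes). Spin1 lies past the last full step. Inside the interval, the longest unbroken run of lower named genes held 7 neighbours: Nedd9, Hivep1, Edn1, Phactr1, Tbc1d7, Gfod1 and Sirt5. It spanned 2.08 Mb, with a median of -0.75. A run of 6, from Id4 to Fam120a, had a median of -0.43, and a run of 5, from Mylip to Rbm24, had -0.72. Between them stood short stretches on the other side of 0, among them Fam8a1, Nup153 and Nhlrc1. Such runs were not limited to the interval. In the flank before it, all detected genes from Psmg4 to Eci2 were below 0, a run of more genes than the longest inside. Steps of 2 Mb in that flank had medians from -0.45 (4 genes) to 0.09 (12 genes). In the flank after the interval they ran from -0.02 to 0.27.

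At the ends of the interval the values did not step in 1 direction. Just inside the first end, Gcm2, a transcription factor gene of the parathyroid, read 96.6 and 190, a difference of 1.11. Elovl2, an elongase of polyunsaturated fatty acids, read 105 and 246, a difference of 1.37. These 2 are the only detected genes of the interval past 2-fold higher by brightest probe. Other probes of Zfp169 (1.47) and Phactr1 (1.01) also passed 2-fold, and an Ippk probe had a bound of 1.05. Just outside, Mak, Tmem14c and Pak1ip1 gave 0.45, -0.08 and 0.07. Just inside the second end, Spin1, which encodes a reader of methylated histone H3, read 9500 and 6435, a difference of -0.43, and a second probe gave -0.59. Fbxw17 before it gave -0.11 and 2310081J21Rik 0.06. Just outside, Nxnl2 was at least 10.9-fold higher (32.6, not well above background, against 327), H2af-ps2 gave 0.34 and S1pr3 -0.36.

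**Figure D2:**
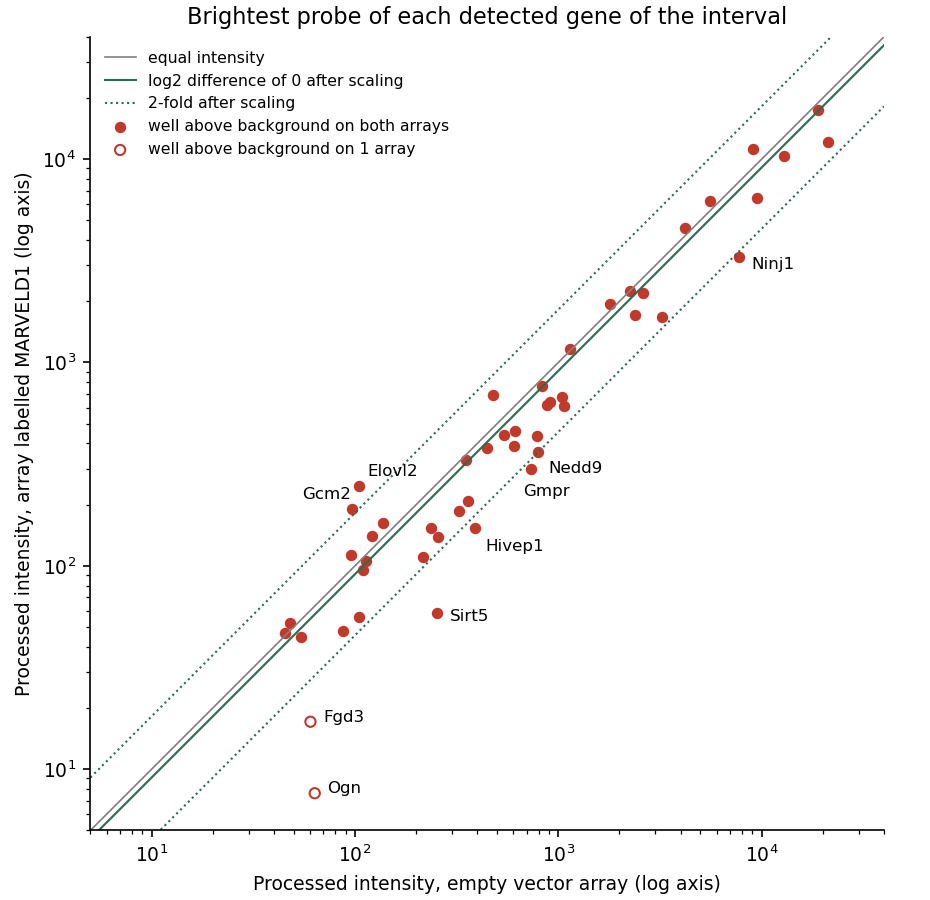
Processed intensity of the brightest probe of each of the 49 detected genes on the empty vector array (x axis, log) and on the array labelled MARVELD1 (y axis, log); filled points were well above background on both arrays, open points on 1, the grey line marks equal intensity, the solid green line no difference after scaling and the dotted lines 2-fold. Sirt5, Hivep1, Gmpr, Ninj1 and Nedd9 lie beyond the lower dotted line and Elovl2 and Gcm2 beyond the upper; Ogn and Fgd3 have bounds only.

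By brightest probe, the lowest value among the detected genes of the interval was that of a metabolic enzyme. Single probes of Fam120a (-3.82), Cenpp (-3.05) and Dek (-2.12), given below, lay lower. Sirt5, a mitochondrial deacylase that removes succinyl and malonyl groups from lysines, read 253 and 58.6, a difference of -1.97, or 3.93-fold lower. Gmpr, which converts GMP to IMP, read 737 and 300, or 2.24-fold lower. Each rests on a single spot per array, and the spread between cultures is not known. Ippk, the kinase that makes inositol hexakisphosphate, lay on the other side at 477 and 693, a difference of 0.68, and its other probe gave a bound of 1.05. Iars, the cytosolic isoleucyl-tRNA synthetase, gave 0.30, and -0.15 by another probe measured on both arrays. Tpmt, a methyltransferase of thiopurines, gave -0.16. Of the 5 genes detected on the list of metabolism and translation, 2 were past 2-fold lower, beside 3.52% of all genes, and the median was -0.16. The list does not hold the elongase gene Elovl2, which was past 2-fold higher.

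On the list of signalling and cytoskeleton genes, 11 were detected. Of these, 9 lay below 0 and 2 above, with a median of -0.66, beside 0.20 for all genes, and 1 was past 2-fold lower, beside 3.52%. Nedd9, a Cas-family scaffold of focal adhesions, read 797 and 362, just past 2-fold lower, and its other probe, dim on the second array, gave a bound of -0.32. Ptpdc1, a phosphatase gene, read 216 and 111 (-0.82), and its other probes gave bounds of -1.17 and -0.70. Edn1, the precursor of the vasoconstrictor endothelin-1, read 360 and 208, a difference of -0.66. Mylip, the ubiquitin ligase that targets the LDL receptor, read 789 and 435 (-0.72). Tbc1d7, a subunit of the TSC complex that restrains mTORC1, gave -0.50. Fgd3, an exchange factor for Cdc42, was at least 1.62-fold lower, at 60.4 against 17.1 (not well above background). Wnk2, a kinase gene, gave 0.18 at 45.4 and 46.6, close to the lowest measurable signals. Bicd2, a dynein adaptor gene, gave 0.25 by its brightest probe and -1.03 by its other probe, at 407 and 181. Dtnbp1, which encodes the BLOC-1 subunit dysbindin, gave -0.19, at 12957 and 10356, and its other probes gave -0.37 and -1.09. Spin1 and Phactr1, described with their neighbours or probes, are also on this list, although Spin1 encodes a histone reader. Cap2 and Rnf144b were not detected.

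On the list of chromatin and transcription genes, 8 were detected, 6 below 0 and 2 above, with a median of -0.33 beside 0.20 for all genes, and 1 past 2-fold lower, beside 3.52%. The list does not hold the transcription factor gene Gcm2, which was past 2-fold higher, or the histone reader gene Spin1 (-0.43). Hivep1, a zinc finger protein that binds NF-kB-like enhancer sites, read 390 and 153, or 2.32-fold lower. Id4, a dominant inhibitor of basic helix-loop-helix factors, read 1037 and 679 by 1 probe and 251 and 166 by the other, differences of -0.47 and -0.46. Its 2 probes, printed above, thus differed by only 0.02. Jarid2, an accessory subunit of Polycomb repressive complex, gave -0.27 by each of its probes measured on both arrays. Phf2, a histone demethylase, gave -0.38, Zfp169 -0.10 and Atxn1, a transcriptional corepressor, -0.73 at 87.1 and 47.7. Kdm1b, a demethylase of histone H3, gave 0.17, below the median of all genes. Dek, the other member, is given with its probes below. Barx1 was not detected.

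Genes on the list of nuclear pore, nucleolus, cell cycle and centromere did not share a direction. Of 5 detected, 3 were above 0 and 2 below by brightest probe, with a median of 0.00 and 0 past 2-fold. Cenpp counted as above 0 at 0.00, changed sign under 4 of the 5 other scalings described below, and had another probe at -3.05. Nup153, a nucleoporin of the nuclear basket, read 9066 and 11167 (0.44), and Nol7 4204 and 4599 (0.27). Ranbp9, on the list though a scaffold of a ubiquitin ligase complex, read 2374 and 1712 (-0.34). The other Nol7 probe gave -0.10, and the other Nup153 probes are given below. Nol8, a nucleolar protein gene, read 105 and 55.8, a difference of -0.77, and its other probe gave -0.38. Of the small leucine-rich proteoglycan cluster, only Ogn was detected, and with the empty vector alone: it read 63.4 and 7.61, at least 1.70-fold lower. Ecm2, Aspn and Omd were not detected.

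The 5 lists hold 30 of the 49 detected genes, and the 19 outside them were spread about 0. Of these 19, 10 were below 0 and 9 above, with a median of -0.06, 1 past 2-fold lower and 2 higher (Gcm2 and Elovl2). Ninj1, which encodes a membrane protein that ruptures the plasma membrane in lytic cell death, read 7726 and 3315, or 2.12-fold lower. Its neighbour Card19 read 21102 and 12096, a difference of -0.67. Mcur1, a regulator of mitochondrial calcium uptake, gave -0.37, and Rbm24, an RNA-binding regulator of splicing, -0.48. On the higher side stood Rnf182, a ubiquitin ligase gene, at 0.37, and A330033J07Rik at 0.38. Gfod1, a gene with an oxidoreductase domain, read 255 and 138, a difference of -0.75, and the transcript 5033430I15Rik read 1066 and 608 (-0.67). Hsp25-ps1, named as a pseudogene, read 121 and 140 (0.34), and Nhlrc1, a ubiquitin ligase gene, 48.1 and 52.4 (0.26). Close to 0 lay Fam8a1 (0.13), Susd3 (0.03), A830005F24Rik (-0.06) and 1700029N11Rik (-0.13), all within the SD of 0.29 between spots. Adtrp, Cd83, 1700048B10Rik and 4931429P17Rik were not detected.

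The 33 probes of unnamed transcripts lay on both sides of 0. Of these, 19 were detected, with a median of 0.11, and 12 were above 0, beside 64.7% of the 4627 unnamed probes detected on the array, whose median was 0.19. Gm270 read 3322 and 5449, a difference of 0.85, and AB045716 37.8 and 78.1, a difference of 1.18. AK199310 read 491 and 214, a difference of -1.06. C030005H24Rik was at least 2.25-fold higher. In all, 2 were past 2-fold higher, beside 9.66% of unnamed probes, and 1 lower, beside 3.07%. In the flanks 24 unnamed probes had a median of 0.02.

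Several genes gave different answers by different probes. In 16 genes of the interval, 2 or more probes were measured on both arrays, and in 7 of the 16 all probes had the same sign. Disagreement in sign was common elsewhere too: all probes had the same sign in 28 of 45 such genes of the flanks and 2926 of 5381 in all. Fam120a, an RNA-binding scaffold gene, read 3228 and 1682 by its probe nearer the 3′ end (-0.80) and 1584 and 102 by a probe 512 bases upstream (-3.82). Dek, an abundant chromatin protein gene, read 19025 and 17379 near its 3′ end (0.01) and 1541 and 323 upstream (-2.12). Nup153 gave 0.44, -0.18 and -0.74 from 3′ to 5′, but a probe further 5′, dim on the second array, gave a bound of -0.02. Cenpp, a kinetochore gene, gave 0.00 and -0.13 by its outer probes and -3.05 by the probe between them, which read 446 and 49. Among probes measured on both arrays, the order was the opposite for Phactr1 and Zfp169. Phactr1, a regulator of protein phosphatase and actin, gave -0.67 by the probe nearer the 3′ end and 1.01 upstream. Zfp169 gave -0.10 and 1.47. A Phactr1 probe further 3′, dim on the second array, gave a bound of -1.22.

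**Figure D3:**
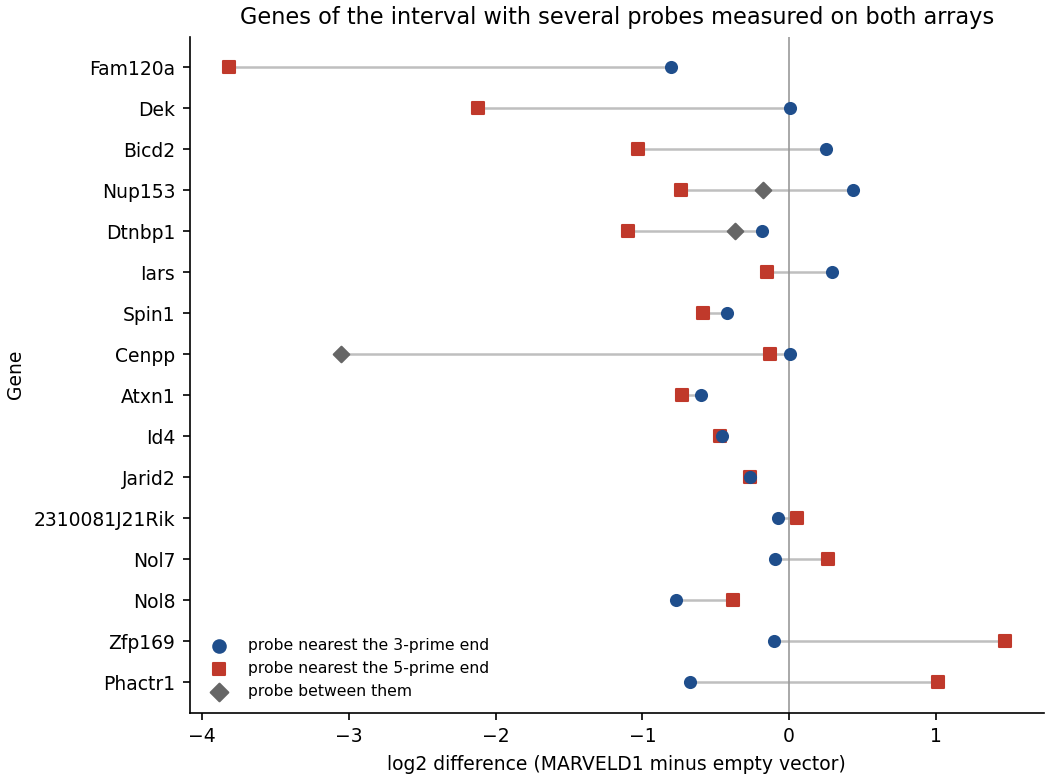
Log2 difference (x axis) of each probe measured on both arrays for the 16 genes of the interval with several such probes (y axis), with circles for the probe nearest the 3′ end, squares for the probe nearest the 5′ end and diamonds for probes between them. Squares lie left of circles in 10 of the 16 genes, by up to 3.01 in Fam120a, and Id4 and Jarid2 show no visible gap.

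This dependence on probe position was not limited to the interval. The difference of the most 5′ probe minus that of the most 3′ probe had a median of -0.13 over the 16 genes, -0.27 over 34 genes of the flanks and -0.28 over 4606 genes in all, with probes at least 500 bases apart. The 5′ probe was the lower of the pair in 62.5%, 64.7% and 67.7% of these genes. Its part in the values of single probes was not tested. Taking the most 3′ probe of each gene left the interval's median at -0.27 and the flanks' at -0.01. When only probes measured on both arrays were used, the most 3′ probes gave -0.19 and -0.01.

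The leaning also varied with signal. With all detected genes split into 3 classes of like size by their mean over both arrays, the interval's genes had medians of -0.10 (18 dim genes), -0.43 (18 middle genes) and -0.11 (13 bright genes). The same classes of all genes had medians of 0.20, 0.09 and 0.29, and those of the flanks 0.33, -0.06 and -0.08. The interval lay below all genes in each class, and in the bright class it was close to the flanks.

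Scaling moved the median difference of all genes and of the interval together. Over all genes it was 0.20 when scaled to the 75th percentile, 0.09 by the array median, 0.07 by quantile normalization, 0.02 by loess and 0.05 by normexp. The interval's median relative to all genes was -0.47, -0.47, -0.44, -0.49 and -0.34 in the same order, and -0.38 with the authors' values. Over the 5 other scalings, 42 of the 49 genes kept their sign under each that gave them a value (4 for Ogn and Fgd3, which the authors' values do not cover), and 7 changed it under at least 1: Cenpp, Dek, Susd3, 2310081J21Rik, Fam8a1, Wnk2 and Nhlrc1, all within 0.26 of 0. Gcm2 fell below 2-fold under 4 of the 5 and Elovl2, Hivep1 and Nedd9 with normexp. Sirt5 stayed past 2-fold, but at -1.28 with normexp beside -1.97 in the text.

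**Figure D4:**
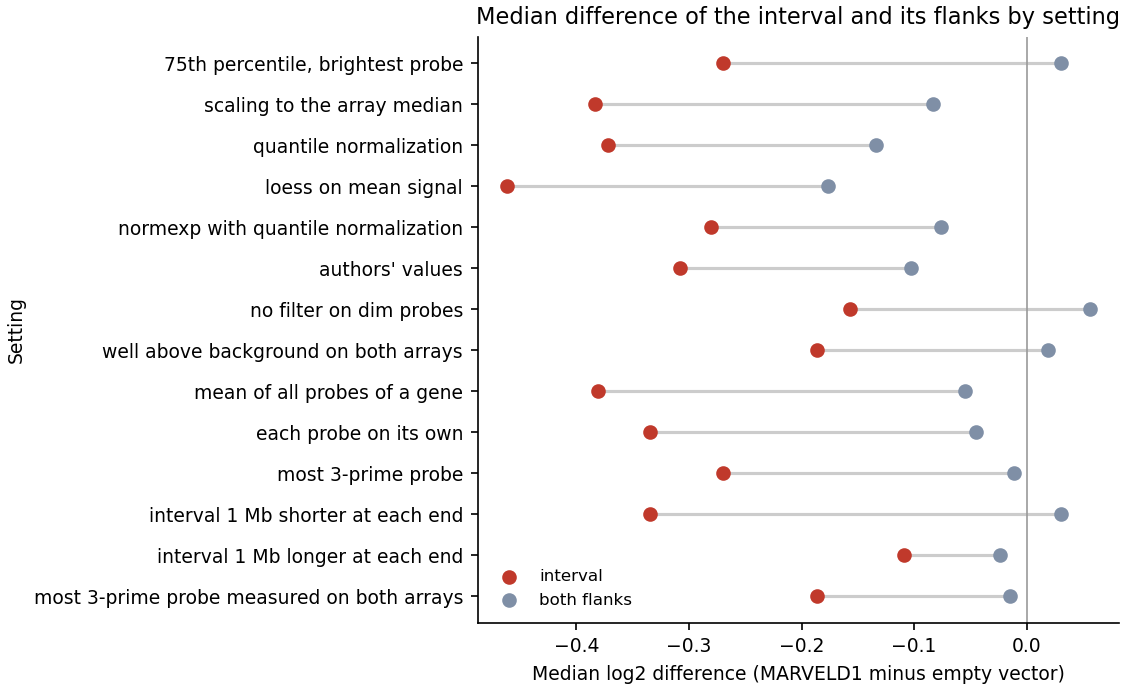
Median log2 difference (x axis) of the genes of the interval and of both flanks under each setting (y axis, the first being the setting used in the text). The interval lies below its flanks in all 14 settings shown; the gap is smallest, -0.09, when the interval is made 1 Mb longer at each end.

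Start regions of these genes, like those of the flanks, held more CpG than those of all detected genes, a feature the rule did not use. RefSeq start regions (GRCm38.p6, 250 bases before to 50 after the start) matched 44 of the 49 detected genes, with a median of 26 CpG, against 21 in 126 flanking genes and 17 in 13157 detected genes. The GC box GGGCGG, on either strand, occurred in 65.9%, 61.9% and 54.6% of them and in 35.9% of all 27025 start regions. CCAAT, on either strand, occurred in 38.6%, 29.4% and 38.7%, and TATAAA in 9.09%, 8.73% and 10.9%. These are matches of letters, not sites of binding. A relation of CpG or these motifs to the differences was not tested. The 250 bases before the start of the genes highest and lowest by brightest probe are shown as examples. They run 5′ to 3′, with GGGCGG or its complement CCGCCC in capitals.
Elovl2, GRCm38.p6 chr13:41220404-41220653, minus strand: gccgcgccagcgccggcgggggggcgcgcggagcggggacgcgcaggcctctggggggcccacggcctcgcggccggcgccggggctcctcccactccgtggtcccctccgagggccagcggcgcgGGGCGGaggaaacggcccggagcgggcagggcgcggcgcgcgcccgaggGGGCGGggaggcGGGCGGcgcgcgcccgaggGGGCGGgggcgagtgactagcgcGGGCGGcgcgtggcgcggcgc
Sirt5, GRCm38.p6 chr13:43365285-43365534, plus strand: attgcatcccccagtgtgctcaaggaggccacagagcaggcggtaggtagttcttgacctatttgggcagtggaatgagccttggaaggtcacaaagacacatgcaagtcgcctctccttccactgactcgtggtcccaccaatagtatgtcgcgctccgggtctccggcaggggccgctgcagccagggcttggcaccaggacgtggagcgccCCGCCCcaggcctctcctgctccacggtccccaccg
The Elovl2 stretch held 49 CpG and 5 GC boxes, and that of Sirt5 13 CpG and 1 GC box.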

How the data were processed

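The authors deposited 1 Agilent Feature Extraction 9.5.3.1 file per array, and the submitters' processing notes name the same program. Per the file headers, spatial and multiplicative detrending were switched on for the processed intensity and background correction off, coordinates are on mm9, and both arrays lay on 1 slide. The authors' deposited table of normalized intensity held 26851 probes, each column equal to the processed intensity divided by 1 factor (124.6 and 123.3, within 1% for 99.6% and 99.7% of probes), with medians of 3.11 and 2.94. Its further processing is not given in the sources used here.

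Non-control spots were kept unless flagged as outliers (116 and 223 spots; 0 were saturated), scaled to the 75th percentile (768.1 and 698.7), turned to log2 and averaged per probe. Of 41081 probes, 32663 were named through a RefSeq table (GRCm38.p6, names only). A probe well above background on 1 array has a bound against the higher of its dim value and the lowest well-measured intensity of that array. Sequences of start regions are from RefSeq. Members, gene lists and tests were chosen with earlier results of these data known. Genes described are those past 2-fold, the 12 highest and 12 lowest measured on both arrays, the 3 nearest each end inside and outside, and lists by role; other detected genes could be named too. No annotation of mm9 was used, so exons and untranslated regions are not given. Calculations used Python 3.11.15, pandas 2.3.3 and R 4.3.3 with limma 3.58.1, and were tested on simulated data. Alternatives were other scalings, filters, probe choices, fold limits, edges and flanks.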

Additional observations from a re-analysis of the deposited data

How the results depend on the processing

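No paired analysis was possible because each group has 1 array. A median counts as moved when it shifts by 0.1 or more on the log2 scale, and a count when it changes by over 1.5 times. Across 13 alternatives the interval's median stayed below 0, from -0.46 to -0.11, and across 14 its difference from the flanks stayed negative, from -0.37 to -0.09. The interval's median was -0.38 with the array median, -0.37 with quantile normalization, -0.46 after loess, -0.16 with no filter on dim probes, -0.38 when a gene's probes were averaged and -0.11 with the interval 1 Mb longer at each end. For the flanks, scaling to the array median gave -0.083, quantile normalization -0.13, loess -0.18, normexp -0.076 and the authors' values -0.10. The difference from the flanks was -0.085 with the longer interval and -0.17 with the most 3′ probe measured on both arrays, an alternative chosen after seeing the data. Genes past 2-fold higher, 2 in the text, were 1 with the array median, after loess and with the authors' values, 0 with normexp and with the interval 1 Mb shorter, and 5 with each probe on its own. Genes past 2-fold lower, 5 in the text, were 3 with normexp and 12 with each probe on its own. At a 1.5-fold limit 17 were lower, and at 3-fold 1 was lower and 0 higher. The cause of these shifts was not tested, except that a longer interval takes in flanking genes and a fold limit sets its own count. Dim probes limit the rest: 33 of 127 member probes were not well above background on either array and 12 on 1 alone.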

Other observations

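Fixed windows of 10 Mb over the genome place the interval among other stretches, as a description only. Of 234 windows with at least 20 detected genes, the medians had quartiles of 0.15 and 0.27 and ran from -0.23 to 0.52. The lowest was chromosome 13 from 40 to 50 Mb, with 52 genes, which overlaps the interval, and the next lowest was -0.22. The edges of the interval were chosen with these arrays in view, so its own median of -0.27 lying below all fixed windows carries no weight as a test. Outside the interval, Serpinb9e and Serpinb9f, serine protease inhibitor genes of the flank before it, were past 2-fold higher at 1.23 and 1.27, while Serpinb9 had a bound of -1.29. Near-identical members of this family can share signal on a probe.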
